A study of Mus musculus with 6 samples.

Results

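The genes described here are 8 mouse genes of the methyl-CpG reader families, namely Zbtb4, Zbtb38, Mbd1, Mbd2, Mbd3, Mbd4, Mbd5 and Mbd6, out of 22367 protein-coding genes of the annotation. The rule names the genes and uses no measured value, but they were chosen with earlier results of these data known. Their DNA methylation was read from lists of MeDIP-seq peaks, and a peak was counted for a gene when its summit lay in the gene or within 5 kb on either side. Joining the peaks of all 6 samples wherever they shared at least 1 bp gave 67 regions at these 8 genes out of 170444 regions in all. Regions are numbered within each gene by their position on the chromosome.

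The samples were mouse primary mesangial cells, the contractile support cells of the kidney glomerulus, and comprised 3 control and 3 TGF-β1 samples. TGF-β1 is a cytokine that drives fibrosis, and it was given at 10 ng/ml over 72 h to the treated group. Both groups were grown at passages 3 to 6 in DMEM containing 25.5 mM glucose and 20% serum, so that control cells too were kept in high glucose. In MeDIP-seq, DNA sheared to a median of about 200 bp is pulled down with an antibody against methylated cytosine and sequenced, and a peak marks a stretch where pulled-down reads pile up. The labels give no genotype or strain and do not say whether the 3 samples of a group were separate cultures, so the p-values measure only the spread between these samples, which may be technical. The lists hold no expression, so the cell type could not be checked against its marker genes, and a bulk sample cannot tell a site methylated in some of the cells from one methylated on some of the alleles.

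Methyl-CpG readers are nuclear proteins that recognise DNA by the methyl groups on its CpG sites and bring in repressive complexes. Mbd1, Mbd2, Mbd3 and Mbd4 carry the methyl-CpG-binding domain, although mammalian Mbd3 has little preference for methylated DNA, and Mbd5 and Mbd6 carry a related domain that does not bind methylated CpG. Zbtb4 and Zbtb38 read methylated DNA through zinc fingers instead. What was measured here is the methylation of the genes that encode these readers, not the binding of the readers.

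The genome sequence under the peaks shows where reads piled up at these genes. Peaks were called without an input sample, so whether the antibody enriched each stretch was not tested. The stretches below are 100 bases on either side of the summit, on the strand of the gene, from the mm9 genome (NCBIM37), with every CpG in capitals. The first set holds the regions that were called in control replicate 3 alone. Zbtb4 region 1 lies 417 bp upstream of the gene (chr11:69578897-69579097, + strand) and holds 8 CpG in the stretch shown. Zbtb4 region 2 lies in coding exon 3 (chr11:69589392-69589592, + strand) and holds 7 CpG. Mbd3 region 2 lies in coding exon 2 (chr10:79858173-79858373, − strand) and holds 13 CpG. The 200 bases before the start of Mbd3 (chr10:79862296-79862495, − strand) hold 13 CpG as well, but no sample had a peak there, and they are shown for that contrast.
Zbtb4 region 1: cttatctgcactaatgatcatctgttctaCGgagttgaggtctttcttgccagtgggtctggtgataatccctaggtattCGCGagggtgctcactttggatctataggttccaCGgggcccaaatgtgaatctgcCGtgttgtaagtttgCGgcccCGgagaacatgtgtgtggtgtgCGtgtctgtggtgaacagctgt
Zbtb4 region 2: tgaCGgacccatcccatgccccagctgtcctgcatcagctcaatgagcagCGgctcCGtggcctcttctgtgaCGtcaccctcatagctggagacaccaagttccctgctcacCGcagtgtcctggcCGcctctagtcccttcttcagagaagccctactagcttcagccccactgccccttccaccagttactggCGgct
Mbd3 region 2: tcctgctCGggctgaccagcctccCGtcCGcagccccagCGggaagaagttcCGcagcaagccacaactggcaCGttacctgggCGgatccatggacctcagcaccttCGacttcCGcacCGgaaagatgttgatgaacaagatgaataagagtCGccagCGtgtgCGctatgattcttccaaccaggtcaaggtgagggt
Mbd3 upstream: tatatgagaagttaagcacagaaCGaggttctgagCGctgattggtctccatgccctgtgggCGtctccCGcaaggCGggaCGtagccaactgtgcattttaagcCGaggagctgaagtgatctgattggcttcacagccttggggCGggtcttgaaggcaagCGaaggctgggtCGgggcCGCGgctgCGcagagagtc

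The second set was chosen for how the regions were distributed over the samples. Zbtb38 region 1, in coding exon 6 (chr9:96585927-96586127, − strand, 9 CpG), and Mbd6 region 2, in intron 7 (chr10:126721486-126721686, − strand, 6 CpG), were called in all 6 samples. Mbd5 region 6, in intron 2 (chr2:48901497-48901697, + strand, 5 CpG), was the 1 region called in every TGF-β1 sample and in no control sample. Mbd5 region 4, in intron 1 (chr2:48846161-48846361, + strand), was called in 3 control samples and 1 TGF-β1 sample. Its stretch is a run of C and T without a single CpG.
Zbtb38 region 1: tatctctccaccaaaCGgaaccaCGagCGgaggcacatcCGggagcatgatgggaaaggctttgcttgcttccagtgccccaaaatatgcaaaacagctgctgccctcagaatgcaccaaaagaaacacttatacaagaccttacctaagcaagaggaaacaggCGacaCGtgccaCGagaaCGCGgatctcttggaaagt
Mbd6 region 2: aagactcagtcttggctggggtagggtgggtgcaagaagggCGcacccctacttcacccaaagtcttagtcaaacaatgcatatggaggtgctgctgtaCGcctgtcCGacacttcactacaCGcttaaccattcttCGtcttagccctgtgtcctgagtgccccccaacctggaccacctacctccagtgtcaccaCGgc
Mbd5 region 6: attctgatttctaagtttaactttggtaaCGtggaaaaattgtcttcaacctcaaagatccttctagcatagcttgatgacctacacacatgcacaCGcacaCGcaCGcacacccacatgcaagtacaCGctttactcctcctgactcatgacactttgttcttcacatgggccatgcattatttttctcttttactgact
Mbd5 region 4: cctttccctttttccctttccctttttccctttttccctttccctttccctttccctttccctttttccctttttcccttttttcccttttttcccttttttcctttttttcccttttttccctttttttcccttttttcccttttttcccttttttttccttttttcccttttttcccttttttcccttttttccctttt

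Peak calling rested on 9407103 to 11494356 reads in control and 12634300 to 13291419 reads in TGF-β1 samples, and gave 81473 to 100449 and 100379 to 105520 peaks. Every TGF-β1 sample was thus read more deeply than every control sample, and in a number of peaks the treatment cannot be told apart from the depth. The lowest pileup called, the number of extended reads over a summit, was 8 in each control sample and 9, 9 and 10 in TGF-β1 replicates 1 to 3. A region without a peak had a signal below the threshold in that sample, not necessarily no reads. Peaks with at least 5 CpG per 100 bp made up 3.52%, 4.87% and 4.90% of the peaks in control replicates 1 to 3 and 3.80%, 4.69% and 3.00% in TGF-β1 replicates 1 to 3, so the samples also differed within each group in how much CpG-dense DNA they called.

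Over all 8 reader genes, control replicates 1 to 3 had 33, 38 and 40 peaks and TGF-β1 replicates 1 to 3 had 41, 44 and 41. Per 1000000 reads the same totals were 3.20, 4.04 and 3.48 in control and 3.22, 3.48 and 3.08 in TGF-β1 samples. The raw totals lay higher in TGF-β1 samples, whereas per 1000000 reads the groups overlapped. For no reader gene were the peak numbers of one group all above or all below those of the other, that is 0 of 8 in either direction. Over the 17949 protein-coding genes with a peak, TGF-β1 samples lay above control in 3.91% and below in 0.345%. Per 1000000 reads the count was also 0 of 8 in either direction, beside 1.84% of all genes above and 14.7% below. With 3 samples against 3 there are 20 assignments, and the exact two-sided permutation test cannot go below p = 0.1.

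Zbtb4, a zinc finger repressor of the BTB family, carried few peaks, with 0, 1 and 2 in control replicates 1 to 3 and 0, 1 and 1 in TGF-β1 replicates 1 to 3. The means were 1.0 ± 1.0 (SD, n = 3) and 0.667 ± 0.577 (SD, n = 3), a difference below the spread within the control group (exact permutation test, p = 1). The gene lies on the + strand at chr11:69579414-69597525 of mm9 and has 4 exons. Its 3 regions were thinly shared. Regions 1 and 2, printed above, had pileups of 19 and 20 in control replicate 3 and were not called elsewhere. Region 3, which is 671 bp beyond the end and inside the neighbouring gene Chrnb1, had pileups of 15 in control replicate 2 and 14 in both TGF-β1 replicates 2 and 3. Without control replicate 3, the difference at Zbtb4 turned to 0.167 peaks in favour of TGF-β1.

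Zbtb38, the related reader with a much longer gene (chr9:96583182-96653250, − strand, 6 exons), had 10, 9 and 10 peaks in control and 11, 11 and 10 in TGF-β1 samples. The means of 9.67 ± 0.577 and 10.7 ± 0.577 (SD, n = 3 each) differed by 1.0 peak, and the groups shared the value 10 (exact permutation test, p = 0.3). Per 1000000 reads the difference was −0.103. Of its 19 regions, 6 were called in all samples and 6 in 1 sample. Coding exon 6, a long exon, held 4 of the regions. Zbtb38 region 1 in that exon had pileups of 22, 18 and 31 in control and 32, 29 and 40 in TGF-β1 samples, so that control replicate 3 lay above TGF-β1 replicate 2. Zbtb38 region 18, in intron 1 at 1011 bp after the start and inside the overlapping gene E030011O05Rik, was called in TGF-β1 replicates 2 and 3 only, with pileups of 19 and 25.

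**Figure D1:**
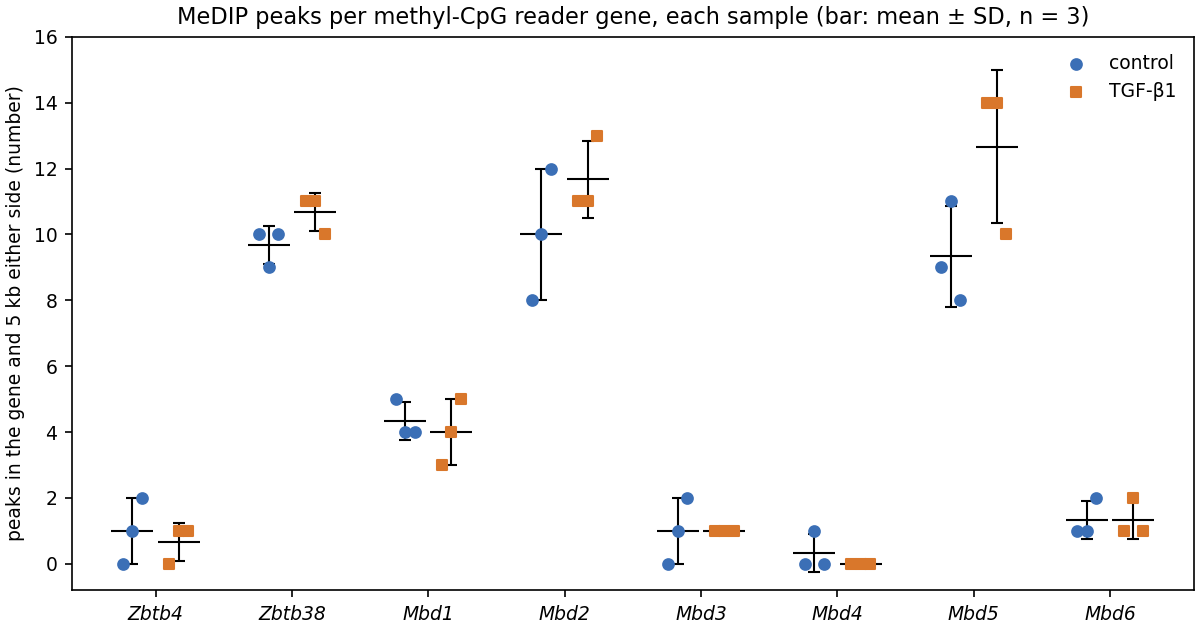
Number of peaks in each reader gene and 5 kb on either side (vertical axis) for each gene (horizontal axis), with one point per sample, circles for control and squares for TGF-β1, and bars for the mean ± SD of 3 samples. The points of both groups share a range at every gene, and the means differ most at Mbd5, with 9, 11 and 8 peaks in control and 14, 14 and 10 in TGF-β1 samples.

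Mbd3, a core subunit of the nucleosome remodelling and deacetylase complex NuRD, had 0, 1 and 2 peaks in control and 1, 1 and 1 in TGF-β1 samples, with a mean of 1.0 in both groups (SD 1.0 and 0, n = 3 each; exact permutation test, p = 1). The gene is short (chr10:79855284-79862295, − strand, 7 exons). Its region 1, 1652 bp beyond the end, had pileups of 24 and 34 in control replicates 2 and 3 and of 32, 31 and 24 in TGF-β1 samples, and was not called in control replicate 1. Region 2, the exonic stretch printed above, was called in control replicate 3 with a pileup of 23. With 6.08 CpG per 100 bp it was the densest of the 67 regions, a density above 6 that only 0.279% of all regions reached.

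Mbd4, a DNA glycosylase that removes thymine from the mismatches left when methylated cytosine deaminates, had the fewest peaks. Control replicate 2 had 1 peak and the other 5 samples had 0 (difference −0.333, exact permutation test, p = 1). That peak, with a pileup of 13, lay in intron 7 of the gene (chr6:115790715-115803389, − strand, 8 exons). Of the 262 CpG sites in the Mbd4 window, 5 (1.91%) fell in a called region, the lowest share of the 8 genes.

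Mbd6, which together with Mbd5 is a partner of the histone H2A deubiquitinase complex PR-DUB, had 1, 1 and 2 peaks in control and 1, 2 and 1 in TGF-β1 samples (mean 1.33 ± 0.577, SD, n = 3, in both; exact permutation test, p = 1). The gene spans chr10:126719012-126726074 on the − strand with 13 exons. Region 2 in intron 7, printed above, was called throughout, with pileups of 16, 23 and 27 in control and 31, 36 and 30 in TGF-β1 samples, and all 3 TGF-β1 values were above all control values. Region 1, in the part of exon 13 that is 3′ UTR, was called in control replicate 3 (pileup 39) and TGF-β1 replicate 2 (pileup 30).

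Mbd5, the largest of the genes (chr2:48805030-49177804, + strand), had 9, 11 and 8 peaks in control and 14, 14 and 10 in TGF-β1 samples. The means were 9.33 ± 1.53 and 12.7 ± 2.31 (SD, n = 3 each). The difference of 3.33 peaks was above either SD, yet TGF-β1 replicate 3 lay below control replicate 2 (exact permutation test, p = 0.2). Leaving out control replicate 2 or TGF-β1 replicate 3 separated the groups, with differences of 4.17 and 4.67 peaks. Among all 17949 genes with a peak, TGF-β1 then lay above control at 1185 and 1180, beside 701 with all samples. Per 1000000 reads the means at Mbd5 were 0.912 ± 0.239 and 0.986 ± 0.203 (SD, n = 3 each), and the difference of 0.0737 was below either SD. Its 18 regions lay in introns but for 2, which were in coding exons 5 and 7, and their median was 2.12 CpG per 100 bp beside 2.38 over all regions. Introns of regions 1 to 13 are numbered in a transcript that starts farther upstream than the one used for regions 14 to 18.

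Of the Mbd5 regions, 11 were called in 2 to 5 samples, and several of these were called more often in one group. Region 6 in intron 2 had pileups of 14, 19 and 17 in TGF-β1 replicates 1 to 3 and was not called in any control sample. Region 2 in intron 1 was called with pileups of 19 and 16 in TGF-β1 replicates 1 and 2, and region 8 in intron 5 with 19 and 15 in the same samples. Region 3 in intron 1 had 19 and 18 in TGF-β1 replicates 1 and 3. None of these 4 regions had a control peak. Over all regions, 7.85% were called in at least 2 more TGF-β1 than control samples, and every TGF-β1 sample was read more deeply. Region 7 in intron 4 had 11, 15 and 11 in TGF-β1 samples and 13 in control replicate 1, and region 10 in intron 5 had 12, 16 and 18 in TGF-β1 samples and 17 in control replicate 2. Region 4, whose printed stretch holds no CpG, went the other way, with 14, 9 and 20 in control samples and 17 in TGF-β1 replicate 2.

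Mbd1 and Mbd2 both lie on chromosome 18 of mm9, on the + strand. Mbd1, a repressor that brings histone H3K9 methylation to methylated DNA, spans chr18:74427926-74442339 with 17 exons. It had 5, 4 and 4 peaks in control and 3, 4 and 5 in TGF-β1 samples, with means of 4.33 ± 0.577 and 4.0 ± 1.0 (SD, n = 3 each; exact permutation test, p = 1). Mbd1 region 2, in coding exon 7, had pileups of 25, 18 and 22 in control and was called in TGF-β1 replicate 3 alone of the treated samples, with a pileup of 26. That sample had the highest raw pileup and the most reads, and per 1000000 reads its pileup of 1.96 lay within the range of the control samples, at 2.42, 1.91 and 1.91. Leaving out TGF-β1 replicate 1 turned the difference at Mbd1 to 0.167 peaks.

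Mbd2, the reader that recruits NuRD to methylated CpG, spans chr18:70727843-70785785 with 7 exons and had 8, 10 and 12 peaks in control and 11, 11 and 13 in TGF-β1 samples. The means of 10.0 ± 2.0 and 11.7 ± 1.15 (SD, n = 3 each) differed by 1.67 peaks, less than the control SD (exact permutation test, p = 0.4). Without control replicate 3 the groups no longer overlapped, at a difference of 2.67 peaks. Among all 17949 genes with a peak, TGF-β1 then lay above control at 1944, beside 701 with all samples. At Mbd2 the difference was 0.667 without control replicate 1 and 1.0 without TGF-β1 replicate 3, and per 1000000 reads it was −0.0569. Its 16 regions included the tallest at any reader gene. That was region 16, 2027 bp beyond the end, with pileups of 47, 34 and 52 in control and 49, 51 and 62 in TGF-β1 samples, and control replicate 3 lay above both lower TGF-β1 values.

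**Figure D2:**
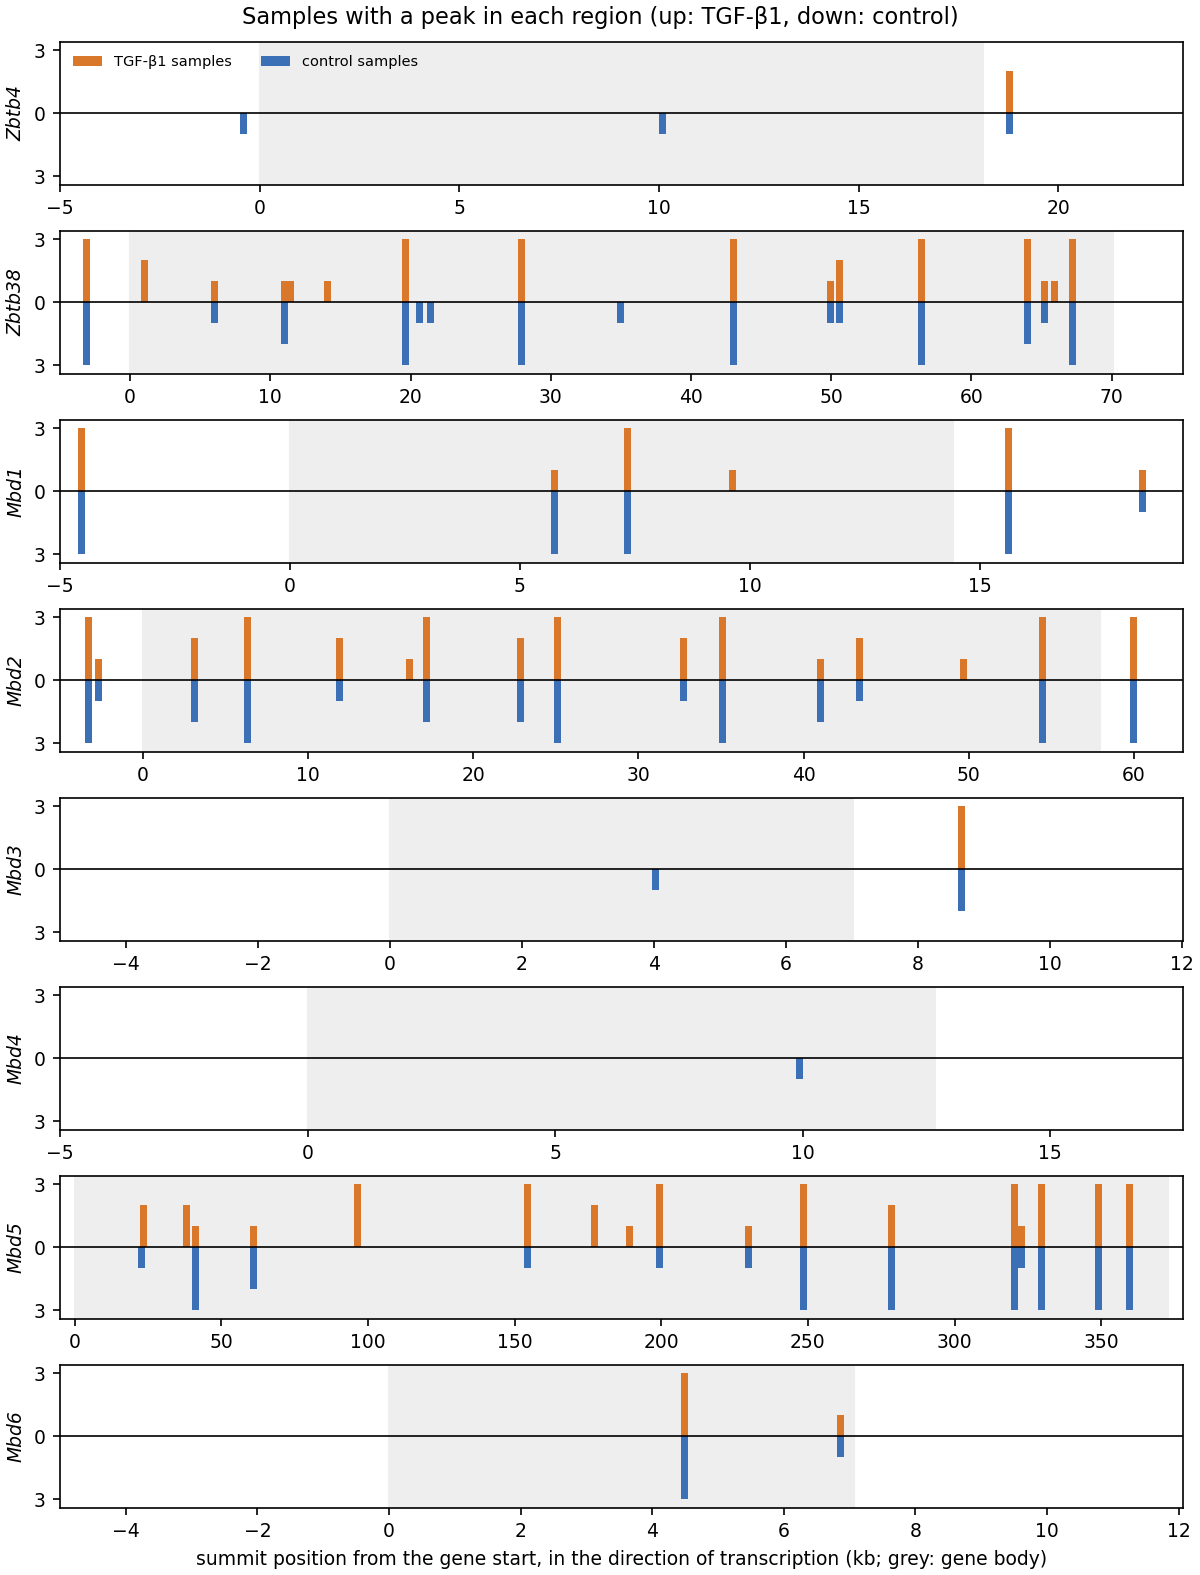
Regions at each of the 8 genes by the position of the summit from the gene start (horizontal axis, kb, in the direction of transcription, gene body in grey), with the number of TGF-β1 samples that called the region drawn upward and of control samples downward (vertical axis, 0 to 3). Bars of unequal height above and below the line are most frequent along Mbd5, and no gene but Zbtb4 has a bar within 1 kb of its start.

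Relative to length, the reader genes spread over most of the range of the genome. The mean number of peaks per 10 kb of gene and flanks was 1.71 at Mbd1 and 1.59 at Mbd2, higher than at 97.8% and 96.7% of all protein-coding genes. Zbtb38 followed with 1.27 peaks per 10 kb (percentile 91.0), then Mbd6 with 0.781 (68.1) and Mbd3 with 0.588 (54.9). Zbtb4 with 0.296 (35.5), Mbd5 with 0.287 (35.0) and Mbd4 with 0.0735 (22.2) lay below the median gene, at 0.517. Mbd5 thus had the highest mean number of peaks of the 8 genes and a low number for its length. The share of the CpG sites of the window that fell in a called region was 18.9% at Mbd2, 17.9% at Zbtb38, 14.4% at Mbd1, 8.59% at Zbtb4, 8.30% at Mbd5, 7.0% at Mbd3, 4.76% at Mbd6 and 1.91% at Mbd4.

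The gene starts were largely free of peaks, as were those of most protein-coding genes. The number of CpG within 500 bp of the annotated start was 102 at Mbd3, 84 at Mbd2, 80 at Mbd6, 76 at Zbtb4, 64 at Mbd1, 56 at Mbd4, 49 at Mbd5 and 23 at Zbtb38. A summit within 1 kb of the start was found at Zbtb4 alone, and there in control replicate 3 alone. Of all protein-coding genes, 13.8% had such a summit in at least 1 sample. Of the 9630 genes with at least 50 CpG within 500 bp of the start, a group that held all readers but Mbd5 and Zbtb38, the share was 8.57%, and of the remaining genes 17.7%. The single reader of 8 was not tested against these shares.

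Within the genes, 43 of the 67 regions lay in introns, 12 in coding exons, 1 in a 5′ UTR exon and 1 in a 3′ UTR exon, and 5 each lay upstream and downstream. Of the 67 regions, 21 (31.3%) were called in all 6 samples and 15 (22.4%) in 1 sample, beside 24.5% and 27.3% of all regions. Their CpG density had a median of 2.40 per 100 bp, close to the 2.38 over all regions, and ran from 0.453 at Mbd5 region 4 to 6.08 at Mbd3 region 2. A density below 0.5 was seen in 2.16% of all regions. The 15 regions called in 1 sample had a median of 3.09 CpG per 100 bp and the 21 called in every sample a median of 2.54. Over the whole genome, regions called in 1 sample had lower medians, from 2.08 to 2.38 in the 6 samples.

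Control replicate 3 called 3 regions that no other sample called, and these were regions 1 and 2 of Zbtb4, with 4.06 and 3.0 CpG per 100 bp, and region 2 of Mbd3. Their median GC content was 59.0%. Over all 8382 regions called only in control replicate 3, the median GC content was 49.3%, and over those called only in 1 of the other samples it was 46.9% to 47.7%. The reader regions called only in 1 of the other samples, 1 to 4 per sample, had medians of 47.3% to 52.6%. In each sample these too lay above the median of all such regions. Control replicate 3 also had the highest share of CpG-dense peaks, at 4.90%, but control replicate 2 was close at 4.87% and TGF-β1 replicate 2 had 4.69%. The part of this library in the calls at Zbtb4 and Mbd3 was not tested.

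**Figure D3:**
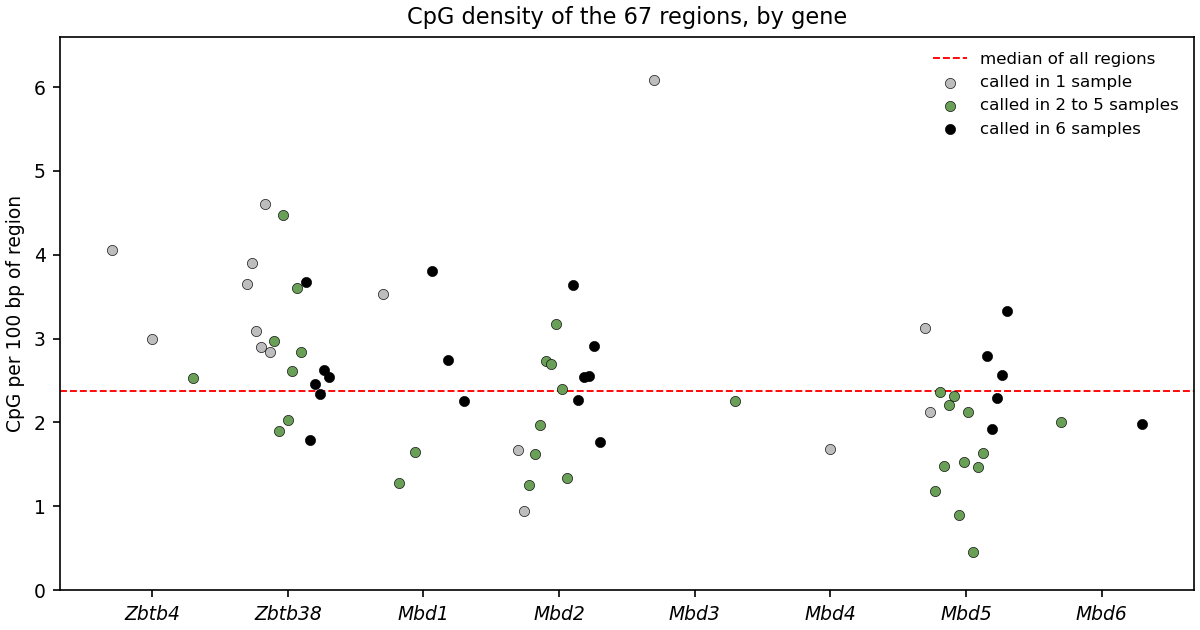
CpG per 100 bp (vertical axis) of each of the 67 regions, by gene (horizontal axis), with grey points for regions called in 1 sample, green for 2 to 5 samples and black for 6 samples, and a dashed line at the median of all regions, 2.38. The grey point of Mbd3 at 6.08 is the highest, and the lowest point, at 0.453, belongs to Mbd5.

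Counted by samples, 1 of the 67 regions (1.49%), Mbd5 region 6, was called in all TGF-β1 and no control samples, beside 0.948% of all regions. The reverse, called in all control and no TGF-β1 samples, held for 0 of 67, beside 0.233%. At least 2 more TGF-β1 than control samples called 7 of the 67 regions (10.4%), beside 7.85% of all regions, and 6 of these 7 were at Mbd5 and the other was Zbtb38 region 18. At least 2 more control than TGF-β1 samples called 2 of 67 (2.99%), namely Mbd1 region 2 and Mbd5 region 4, beside 3.12%. The shares over the reader genes were thus near those over all regions. Pileups in these 9 regions were low, with a median of 17 and a range of 9 to 26, whereas the 21 regions called throughout had a median of 25 and a range of 10 to 62. A list of peaks has no value below its threshold, so these counts have no test.

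The 21 regions with a value in every sample were compared by their pileup. As deposited, the median pileup over these regions was 20, 20 and 26 in control replicates 1 to 3 and 28, 26 and 29 in TGF-β1 replicates 1 to 3, and over all 41744 regions called throughout it was 23, 23 and 27 and 28, 27 and 30. On this scale the TGF-β1 values lay above all control values in 5 of the 21 regions, beside 14.6% of all regions, and below in 0 of 21, beside 0.309%. The 5 were Mbd6 region 2, given above, and 2 regions each of Mbd2 and Mbd5. Mbd2 region 1, 3250 bp upstream, had 30, 26 and 30 in control and 41, 33 and 38 in TGF-β1 samples. Mbd2 region 15, in coding exon 6, had 24, 25 and 26 against 30, 29 and 35. The Mbd5 regions were 2 in intron 8. Region 17 had 19, 14 and 15 in control and 21 in each TGF-β1 sample, and region 18, over the pseudogene Gm13509, had 26, 28 and 24 against 31, 39 and 39. Per 1000000 reads the groups overlapped in all 21 regions, with 0 above and 0 below, beside 1.97% of all regions above and 10.4% below.

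**Figure D4:**
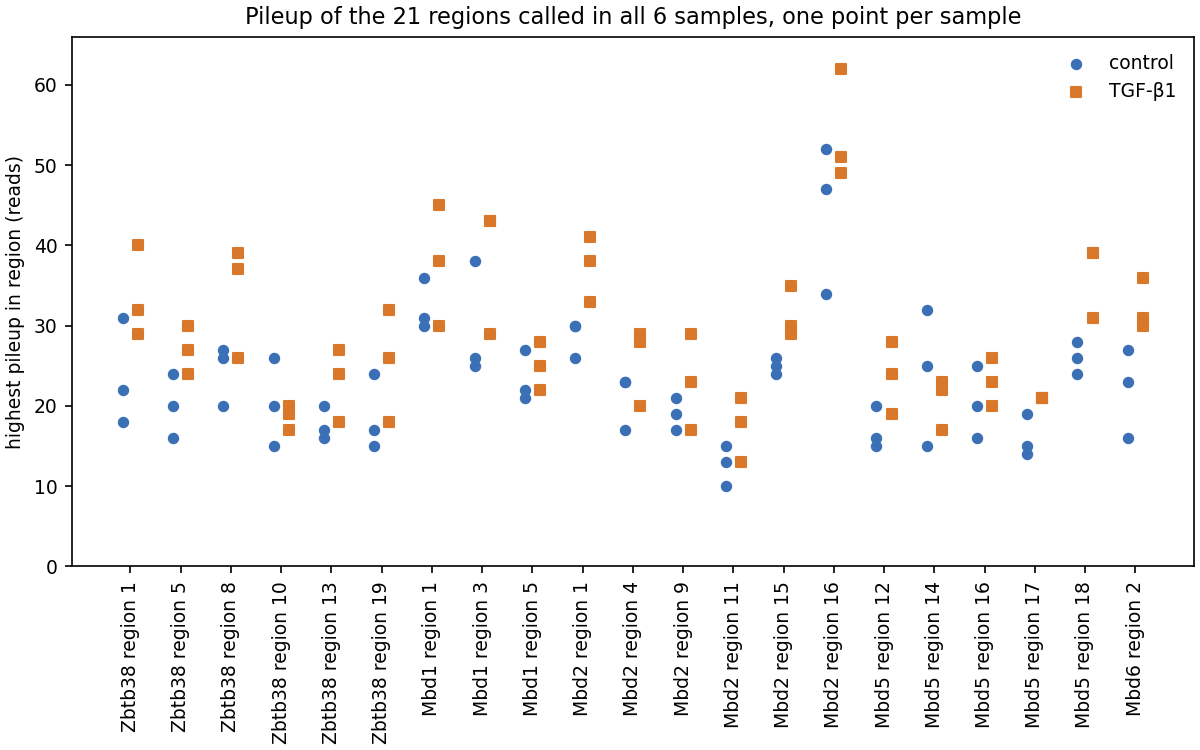
Highest pileup in reads, not scaled for depth (vertical axis, from 0), of the 21 regions called in all 6 samples (horizontal axis), with circles for the 3 control and squares for the 3 TGF-β1 samples. Squares lie above all circles in 5 regions, Mbd2 regions 1 and 15, Mbd5 regions 17 and 18 and Mbd6 region 2.

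The remaining regions called throughout had overlapping pileups. At Zbtb38, region 5 had 16, 20 and 24 in control and 30, 24 and 27 in TGF-β1 samples, and region 8 had 20, 26 and 27 against 37, 26 and 39. In both, TGF-β1 replicate 2 lay at or below control replicate 3. Zbtb38 region 13 had 20, 17 and 16 against 24, 18 and 27, and region 19, which lies 3081 bp upstream, had 17, 15 and 24 against 26, 18 and 32. Zbtb38 region 10 in intron 4 was the exception at this gene, with 15, 20 and 26 in control and 17, 19 and 20 in TGF-β1 samples. At Mbd5, region 12 had 16, 15 and 20 against 28, 19 and 24, whereas region 14 had 25, 15 and 32 against 17, 22 and 23. Mbd5 region 16, over coding exon 7, had 20, 16 and 25 against 20, 26 and 23. Zbtb38 region 10 and Mbd5 region 14 were the ones in which a control sample held the highest value.

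Similar overlap was found at the other Mbd1 and Mbd2 regions. Mbd1 region 1, 4534 bp upstream, had 31, 30 and 36 in control and 38, 30 and 45 in TGF-β1 samples. Mbd1 region 3 in intron 11 had 26, 25 and 38 against 43, 29 and 43, and region 5, which is beyond the gene and inside Ccdc11, had 21, 22 and 27 against 25, 22 and 28. TGF-β1 replicate 2 was the lowest treated sample in all 3. Within Mbd2, regions 4 and 11 had 23, 17 and 23 against 20, 28 and 29, and 15, 10 and 13 against 13, 18 and 21. Region 9, in coding exon 3, had 19, 17 and 21 against 23, 17 and 29.

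In the limma fit, log2 pileup was centred on the median of each sample and fitted over all 41744 regions, so that a fold change is relative to the typical region. None of the 21 regions had an adjusted p below 0.05, as was the case for 0.0% of all regions, and each adjusted p was 0.999. At an unadjusted p below 0.05 the numbers were 0 of 21 and 1744 of 41744 (4.18%). The log2 fold change of TGF-β1 over control was largest at Mbd6 region 2, at 0.36 ± 0.214 (SE, n = 3 each; adjusted p = 0.999), and smallest at Mbd5 region 14, at −0.38 ± 0.233 (SE, n = 3 each; adjusted p = 0.999). Zbtb38 held both directions, with 0.31 ± 0.207 (SE) at region 1 in coding exon 6 and −0.31 ± 0.217 (SE) at region 10 in intron 4. The size of these values depended on single samples, but none of those just named changed sign when 1 was left out. Some fold changes of lesser size did. Mbd2 region 16 went from 0.08 to −0.06 without control replicate 2, and Mbd1 region 1 from −0.02 to 0.10 without TGF-β1 replicate 2. Leaving out 1 sample in turn gave 0.19 (without control replicate 1) to 0.46 at Mbd6 region 2 and −0.65 (without control replicate 2) to −0.22 (without control replicate 3) at Mbd5 region 14. It gave 0.17 (without control replicate 2) to 0.45 at Zbtb38 region 1 and −0.48 (without control replicate 1) to −0.19 (without control replicate 3) at Zbtb38 region 10. Of the 21 regions, 16 had a value above 0, with a median of 0.15, while over all regions 49.2% were above 0. Divided by reads, 13 of the 21 were above 0, with a median of 0.059, beside 32% of all regions. Leaving out 1 sample in turn gave 13 to 17 of 21, beside 46.7% to 50.7% of all regions. Regions of the same gene share its samples and neighbourhood, and the 21 are not replicates of the treatment.

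**Figure D5:**
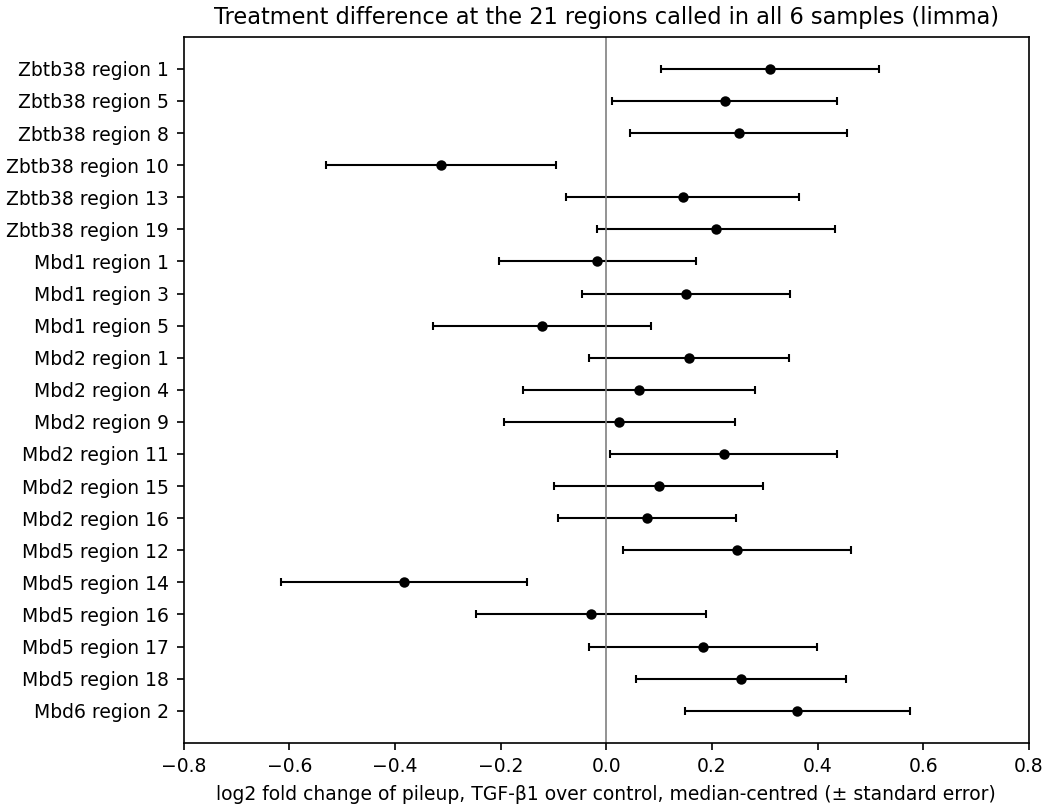
Log2 fold change of the median-centred pileup, TGF-β1 over control (horizontal axis), with its standard error, for the 21 regions called in all 6 samples (vertical axis). The values run from −0.38 at Mbd5 region 14 to 0.36 at Mbd6 region 2, and 16 of the 21 lie above 0.

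The wider set of readers and their partners was counted in the same way in 32 genes, of which 31 had a peak. Peak numbers in TGF-β1 samples lay above all control values at 2 of the 31, Baz2b and Chd4, and below at 0, beside the shares of 3.91% and 0.345% given above for all genes. Baz2b, which carries a domain related to the methyl-CpG-binding domain, had 22, 24 and 25 peaks in control and 29, 26 and 26 in TGF-β1 samples (difference 3.33, exact permutation test, p = 0.1, the smallest that 3 against 3 allow). Chd4, the remodelling ATPase of NuRD and so a partner of Mbd2 and Mbd3, had 4, 4 and 5 against 7, 7 and 7 (difference 2.67, exact permutation test, p = 0.1). Per 1000000 reads, Chd4 still lay above in every sample, with 0.388, 0.425 and 0.435 against 0.549, 0.554 and 0.527, whereas the groups overlapped at Baz2b. On that scale 1 of the 32 genes lay above in every sample and 3 below, beside 1.84% and 14.7% of all genes with a peak. The 3 included Hdac1 and Gatad2b. Gatad2b had 1 peak in each of the 6 samples, so its order followed the reads alone.

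By role, 1 of 11 NuRD genes (Chd4) and 1 of 9 other readers with a peak (Baz2b) lay above control in peak number, and 0 of 4 corepressor genes, 0 of 2 base repair genes and 0 of 5 PR-DUB genes did. No gene of these groups lay below. The mean was higher in TGF-β1 samples at 18 (58.1%) and lower at 7 (22.6%) of the 31 genes with a peak, near the 57.0% and 22.2% of all genes with a peak. Among the 8 readers it was higher at 3 (Zbtb38, Mbd2 and Mbd5), lower at 3 and equal at 2, and these counts were not tested against each other.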

How the data were processed

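MeDIP-seq peak lists of 3 control and 3 TGF-β1 samples were used, with groups from the sample labels. The authors mapped reads of 49 bp to mm9 with BWA, kept unique reads once per start position and called peaks per sample with MACS2 2.1.0.20150731 at a q cutoff of 0.01 without an input sample. Pileup was deposited as a signal in reads, unscaled for depth. Fold enrichment was deposited as a ratio of pileup over local background. The −log10 p-value and −log10 q-value of each peak were deposited too. A region below the threshold has no value.

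Peaks were joined by 1 bp overlap, and the highest pileup per sample was kept. Genes, exons and sequence came from NCBIM37 with GENCODE vM1, and introns were numbered in the coding transcript with the longest coding sequence or, upstream of it in Mbd5, the next that spans the position. Peaks on unplaced sequence were not assigned to genes. Peak numbers were set against each other by permutation (exact, two-sided). Pileups in regions called in all 6 samples were compared with limma 3.58.1 (in R 4.3.3, with lmFit, a trended eBayes and Benjamini-Hochberg adjustment), and the fit was tested on simulated data. The changes put into the simulated data were larger than any seen at the reader regions. Whether the fit would find changes of that lesser size was not tested. Counting used Python 3.11.15. All 8 genes were named, and of their regions those called in all samples or differing by 2 or more samples between groups, with the regions of Zbtb4, Mbd3, Mbd4 and Mbd6 and the printed stretches chosen after their values were seen. Of the partner genes, those without overlap were named, except 1 that is not reported here. The genes and lists were chosen with earlier results of these data known. Alternatives were stricter peak thresholds, other gene windows, scaling by reads, other normalizations, leaving out each sample and a replicate block.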

Additional observations from a re-analysis of the deposited data

How the results depend on the processing

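Scaled to peaks per 1000000 reads, the number of reader genes with a higher mean after TGF-β1 was 1 instead of 3, and the differences at Zbtb38 (−0.103) and Mbd2 (−0.0569) turned negative. Single samples mattered at genes with few peaks and at those with many. Leaving out 1 sample, the difference ran from 2.67 to 4.67 peaks at Mbd5 and from 0.667 to 2.67 at Mbd2. Leaving out 1 sample in turn gave 0 to 2 genes without overlap (0 with all samples), 3 to 6 genes with a higher mean, 1 to 3 regions called in the TGF-β1 group only, 0 to 1 called in the control group only, and 0 to 1 regions at an unadjusted p below 0.05 in limma. Over all 17949 genes with a peak, 1028 to 1944 then lay above control and 140 to 409 below (701 and 62 with all samples). Of the 159915 to 164662 regions then left, 3026 to 4345 were called in TGF-β1 only and 818 to 1869 in control only. In limma, 1330 to 2477 of 41744 regions had an unadjusted p below 0.05. The share of all genes with a higher mean was not counted here. The gene differences then ran from −0.833 to 0.167 at Zbtb4 and Mbd1, which were above 0 without control replicate 3 and without TGF-β1 replicate 1. The groups at Zbtb38 separated without TGF-β1 replicate 3 (1.33). One region reached an unadjusted p below 0.05 (0 in the main comparison) under each of 4 settings. These were leaving out control replicate 2 (Mbd5 region 14, −0.65), division by reads (Mbd5 region 14, −0.47), fold enrichment in place of pileup (Mbd6 region 2, 0.41), and a fit that took regions with 3 or more samples and gave an uncalled sample its lowest called pileup (Mbd5 region 6, 0.80). All 3 control values of that last region were set in this way, so the fit restates that no control sample called it. Adjusted p stayed above 0.05 for every reader region under every setting run. Zbtb38 region 10 has no value at a mean pileup of at least 20. The cause of these shifts was not tested.

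The labels do not say whether same-numbered samples were handled together. Their deviations from their group means correlated at −0.0464, 0.0432 and −0.130, so no shared deviation was seen, which cannot settle whether they were paired. With the replicate block, 2 of the 8 genes (Mbd2 and Mbd5) differed in one direction in all 3 pairs of same-numbered samples. The exact sign-flip p cannot go below 0.25 there. The share of all genes that differed in this way was not counted, so the 2 cannot be read as particular to the readers. With this block, limma called 0 reader regions and 0 of all 41744 regions.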
